A study of Saccharomyces cerevisiae with 12 samples.

Results

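RNA polymerase I (Pol I) occupancy was examined over the promoter-proximal part of ETS1, the spacer at the 5′ end of the yeast 35S ribosomal RNA gene. It was defined as positions 1 to 350 of the gene and covers 350 of the 6858 positions measured (chrXII:467220-467569, minus strand, assembly R64). The remaining ETS1 positions, 351 to 700, are called distal ETS1 here and served for comparison. Native elongating transcript sequencing (NET-seq) libraries came from 4 groups with 3 biological replicates each, 12 libraries in all. Cells received 50 μM BMH-21 for 2 min, vehicle for 2 min, BMH-21 for 16 min or vehicle for 16 min. The vehicle was phosphate buffer. Treatment began at an OD600 of 0.3 at 30 °C, and the times consisted of 1 min or 15 min of culture plus the harvest. Every group was the same wild-type *Saccharomyces cerevisiae* strain, in which the Pol I subunit Rpa135 carries HA and His tags. RPA190 is supplied from a plasmid in an rpa190Δ background. Pol I was purified with anti-HA beads. An untagged strain was not analysed here.

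Pol I transcribes the 35S gene into a precursor from which the 18S, 5.8S and 25S rRNAs are processed. ETS1 is the first stretch that Pol I transcribes after it leaves the promoter, and its RNA is removed and degraded during processing, so it does not accumulate as mature rRNA does. NET-seq purifies Pol I together with its nascent RNA and maps the RNA 3′ end, which marks the last incorporated base. A position with many 3′ ends is one that Pol I often occupies, and a sharp local peak is commonly read as a pause. BMH-21 is a planar heterocycle that intercalates into GC-rich DNA and inhibits Pol I.

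The sequences below are those on which the comparisons turn. They are RNA-sense sequences, 5′ to 3′, taken from the base column of the deposited tables, and all 6858 bases matched the R64 reference. In the first line the capitals mark positions 1 to 10, where almost no read ends were found. In the other lines the capital marks the last incorporated base at the named position, with up to 20 nt ending at that base and 10 nt after it. Positions 57, 102, 144, 206, 232, 260 and 336 were pauses in all 4 groups, and position 105 lies 3 nt after the pause at 102.
Positions 1 to 60 (chrXII:467510-467569): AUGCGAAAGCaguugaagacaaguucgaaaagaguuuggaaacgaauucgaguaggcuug
Position 57 (chrXII:467503-467532): ggaaacgaauucgaguaggCuugucguucg
Position 102 (chrXII:467458-467487): uggccucgucaaacgguggAgagagucgcu
Position 105 (chrXII:467455-467484): ccucgucaaacgguggagaGagucgcuagg
Position 144 (chrXII:467416-467445): gaucugccuagucucuauaCagcguguuua
Position 206 (chrXII:467354-467383): aauuugggaagaaauucccAgaguguguuu
Position 232 (chrXII:467328-467357): guuucuuuugcguuuaaccUgaacagucuc
Position 260 (chrXII:467300-467329): ucaucgugggcaucuugcgAuuccauuggu
Position 336 (chrXII:467224-467253): caaagaauucaaacuugggGgaaugccuug

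Values are RPM, read ends at a position per 1000000 read ends of the same library on the 35S gene. A value is therefore a share of the 35S signal in that library and not an amount of RNA per cell, and fewer polymerases on promoter-proximal ETS1 cannot be told apart from more signal elsewhere on the gene. Mature rRNA contributes to the gene regions, so the scale carries it too. The libraries held 1054374 to 10480384 reads on the 35S gene. Promoter-proximal ETS1 received 5927 to 28195 of them after BMH-21 and 33692 to 92325 after vehicle at 2 min, and 2643 to 8079 after BMH-21 and 19409 to 117923 after vehicle at 16 min. At 16 min a single 25S position took 5.47% to 7.19% of the signal after BMH-21 and 2.50% to 5.38% after vehicle. The part of that position in the results was not tested.

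After BMH-21 less of the 35S signal lay on promoter-proximal ETS1, at both times. At 2 min the share was 0.922%, 0.310% and 0.506% in the BMH-21 libraries and 1.41%, 1.73% and 1.75% in the vehicle libraries. All 3 BMH-21 libraries lay below all 3 vehicle libraries, and BMH-21 replicate 1 was the highest of its group. The means were 0.580% ± 0.313 after BMH-21 and 1.63% ± 0.19 after vehicle (SD, n = 3 each), a log2 change of -1.63. At 16 min the share was 0.189%, 0.153% and 0.251% in the BMH-21 libraries and 1.13%, 1.18% and 1.49% in the vehicle libraries. The groups were again separate, with means of 0.197% ± 0.049 after BMH-21 and 1.27% ± 0.20 after vehicle (SD, n = 3 each) and a log2 change of -2.70. The 2-sided exact permutation test gave p = 0.1 at each time, the smallest value that 3 libraries against 3 allow. When both times were joined and treatment was permuted inside each, the mean log2 change was -2.16 and the exact p was 0.005, the smallest that 400 arrangements allow (adjusted p = 0.04 over 8 measures, Benjamini-Hochberg). Counting error was small beside the spread of the replicates, since the 95% Wilson intervals of the shares reached at most 0.0208 percentage points to either side. These intervals cover counting error only. The study's linker carried a unique molecular identifier, and how it was used in making these values was not determined here.

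**Figure D1:**
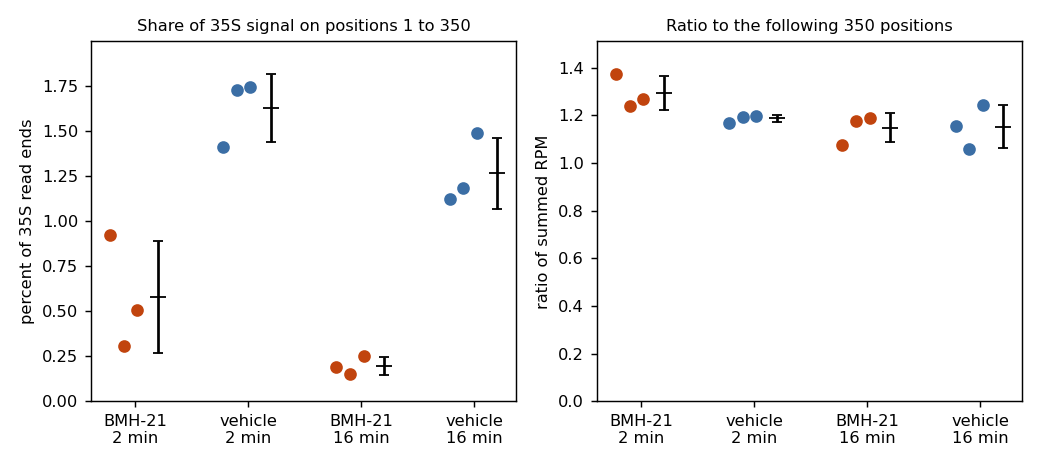
Signal on promoter-proximal ETS1 by library. The left panel shows its percent of the 35S read ends and the right panel the ratio of its summed RPM to that of distal ETS1; points are libraries, and the bar beside them is the mean ± SD (n = 3). In the left panel the BMH-21 libraries lie between 0.153% and 0.922% and the vehicle libraries between 1.13% and 1.75%; in the right panel all groups lie between 1.06 and 1.37.

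The balance between promoter-proximal and distal ETS1 differed little between treatments when sums were compared. The ratio of summed RPM on positions 1 to 350 to that on positions 351 to 700 was 1.37, 1.24 and 1.27 in the BMH-21 libraries and 1.17, 1.19 and 1.20 in the vehicle libraries at 2 min. Each BMH-21 library was above each vehicle library there, with a log2 difference of 0.12 and an exact p of 0.1. The difference was 0.079 without BMH-21 replicate 1. At 16 min the ratio was 1.08, 1.18 and 1.19 in the BMH-21 libraries and 1.15, 1.06 and 1.24 in the vehicle libraries. The groups overlapped, and the log2 difference was -0.0036 (exact permutation p = 1). Over both times the log2 difference was 0.06 (exact permutation p = 0.245, adjusted p = 0.327 over 8 measures), and the difference between the times was -0.13 (exact permutation p = 0.29). With 1 library left out the value over both times lay between 0.030 (without vehicle replicate 2 of 16 min) and 0.087 (without vehicle replicate 3 of 16 min). The difference between the times was -0.24 without replicate 2 of every group and -0.023 without replicate 1. A summary by the median position in place of the sum, which gives the few tall peaks no extra weight, moved the result. The ratio of medians at 16 min was 1.5, 1.75 and 1.5 in the BMH-21 libraries and 1.07, 1.15 and 1.22 in the vehicle libraries, a log2 difference of 0.46. These medians rest on 2 to 7 reads in the BMH-21 libraries. At 2 min the ratio of medians was 1.28, 1.14 and 1.17 after BMH-21 and 0.895, 0.977 and 1.03 after vehicle. Over both times the log2 difference of the medians was 0.38, with an exact permutation p of 0.005. This was 1 of several alternative summaries of the ratio, and its p was not adjusted.

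The profile from the first position was followed in 25-nt windows. Signal was lowest in the first window, was highest at positions 101 to 125, had a trough at positions 201 to 225 and was higher again at positions 226 to 250. The highest window was the same in all 12 libraries. At 2 min the window of positions 101 to 125 averaged 62.7, 21.4 and 33.3 RPM per position in the BMH-21 libraries and 92.2, 118 and 125 RPM in the vehicle libraries. At 16 min the same window averaged 12.5, 14.7 and 17.6 RPM in the BMH-21 libraries and 80.9, 76.9 and 93.2 RPM in the vehicle libraries. The trough at positions 201 to 225 averaged 13.1, 3.97 and 8.53 RPM in the BMH-21 libraries and 18.9, 20.8 and 19.96 RPM in the vehicle libraries at 2 min. In each of these comparisons the BMH-21 libraries lay below the vehicle libraries.

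All 14 windows were lower after BMH-21 at 2 min by limma on log2(mean RPM + 1), where 30.2% of the 275 windows of the gene were called lower and 10.2% higher. Their log2 changes ran from -1.95 at positions 26 to 50 to -1.20 at positions 251 to 275, with Benjamini-Hochberg adjusted p from limma between 0.0132 and 0.0390. None of the 14 passed without BMH-21 replicate 3 or without any of the 3 vehicle replicates (lowest adjusted p of limma 0.0543 to 0.0746), although all kept a negative change. All 14 windows were also lower at 16 min, where 22.2% of windows were called lower and 0.0% higher. There the log2 changes ran from -2.87 at positions 151 to 175 to -1.55 at positions 1 to 25, with limma adjusted p between 2.4e-05 and 0.0150, and every window passed with any 1 library left out.

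**Figure D2:**
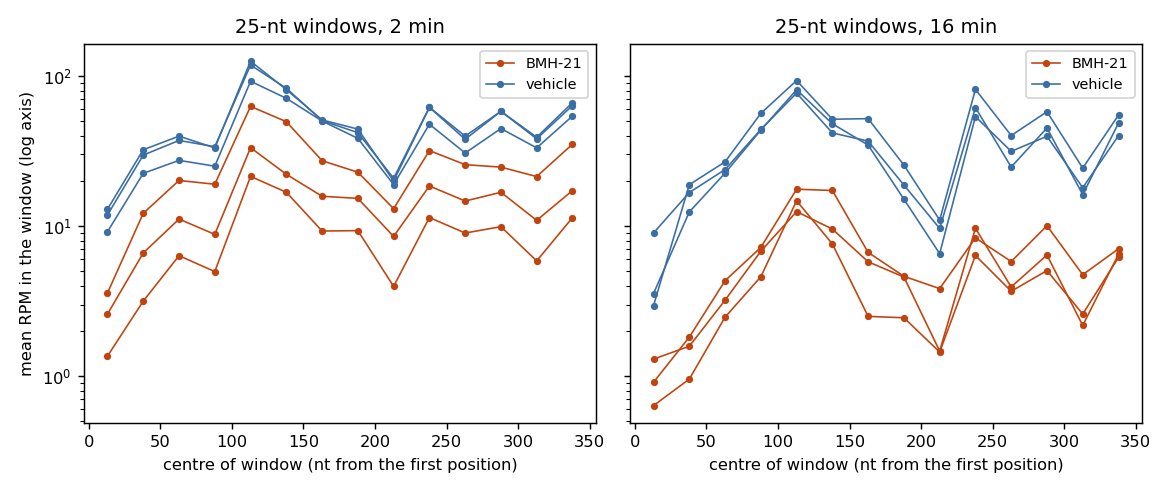
Mean RPM per position in 14 windows of 25 nt, with 1 line per library and a log axis, at 2 min (left) and 16 min (right). The BMH-21 lines run below the vehicle lines in every window and follow a similar course, with the highest window at positions 101 to 125 in all 12 libraries.

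The first transcribed bases carried almost no signal. Positions 1 to 10 held 0 to 2 reads per library after BMH-21 and 2 to 6 after vehicle at 2 min, and 3 to 9 after BMH-21 and 0 to 8 after vehicle at 16 min. The study cut a size range from a gel during library preparation, and the shortest RNA that passed it was not determined here, so the lack of read ends there does not show a lack of Pol I. Positions 11 to 25 held 75 to 274 reads per library after BMH-21 and 545 to 1578 after vehicle at 2 min, and 21 to 83 after BMH-21 and 95 to 923 after vehicle at 16 min. Signal thus began at about position 11 in every group. Position 12, a G, was the position with the largest decrease at 2 min. It had 4.91, 3.78 and 3.41 RPM in the BMH-21 libraries and 34.8, 39.0 and 39.6 RPM in the vehicle libraries, a log2 change of -2.95 ± 0.16 (SE; limma adjusted p = 0.0020) that passed in all 14 settings that keep the scale of the whole gene, leave-one-out fits included. At 16 min the same position had 1.41, 0 and 2.85 RPM in the BMH-21 libraries and 7.83, 27.5 and 3.07 RPM in the vehicle libraries. The groups did not overlap but the vehicle libraries were spread widely, and limma gave an adjusted p of 0.150.

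The first 50 nt held a smaller share of the promoter-proximal signal after BMH-21 at 2 min, though no window passed the test of shape. Positions 1 to 25 held 1.117% ± 0.16 of the promoter-proximal signal after BMH-21 and 1.73% ± 0.12 after vehicle (SD, n = 3 each), and positions 26 to 50 held 3.04% ± 0.43 after BMH-21 and 4.29% ± 0.32 after vehicle. The groups did not overlap in either window. When each library was scaled to its own promoter-proximal sum, these windows had limma adjusted p of 0.0568 and 0.0828, so neither passed, where 0.364% of all windows were called lower and 54.5% higher under that scaling. Positions 251 to 275 took a larger share, 7.15% ± 0.17 after BMH-21 and 5.53% ± 0.19 after vehicle, with a limma adjusted p of 0.125. At 16 min positions 26 to 50 held 1.82% ± 0.27 after BMH-21 and 3.15% ± 0.39 after vehicle, without overlap, and passed as lower (limma adjusted p = 0.0108). Positions 126 to 150 held 14.1% ± 2.7 after BMH-21 and 9.37% ± 1.13 after vehicle and passed as higher (limma adjusted p = 0.0395). The BMH-21 libraries ranged there from 12.4% to 17.2%. Position 137 in that window had 56.0 RPM in BMH-21 replicate 3, against 1.77 and 0.190 RPM in replicates 1 and 2. At 16 min 1.09% of all windows were called lower and 82.5% higher under that scaling, so that these calls are weak.

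Read position by position, the decrease covered most of promoter-proximal ETS1. At 2 min limma on log2(RPM + 1) called 205 of 338 tested positions lower, or 60.7%, where 23.4% of all tested positions of the gene were called lower and 3.56% higher. It called 0 higher, also at an unadjusted p under 0.05, and edgeR on the recovered reads called 185 lower and 0 higher, against 21.9% and 5.22% of all positions. The median log2 change was -1.38, against -0.26 over the whole gene. With libraries scaled by the median ratio of positions 72 were called lower, against 9.59% of all positions lower and 7.14% higher. In distal ETS1 272 of 342 positions were called lower. The number at 2 min depended on single libraries. It was 307 without BMH-21 replicate 1, 178 without BMH-21 replicate 2 and 65 without BMH-21 replicate 3. Of all positions of the gene, 28.8%, 24.6% and 9.68% were then called lower. It was 60 without vehicle replicate 1 (9.07% of all positions) and 1, position 12, without vehicle replicate 2 or 3 (0.0148%). At an unadjusted limma p under 0.05, 227 positions were still lower without vehicle replicate 2 and 228 without vehicle replicate 3.

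At 16 min limma called 191 of 335 tested positions lower, or 57.0%, where 11.7% of all tested positions were called lower and 0.104% higher. It called 0 higher, also at an unadjusted p under 0.05, and edgeR called 140 lower and 0 higher, against 8.59% and 0.268% of all positions. The median log2 change was -2.26, against -0.06 over the whole gene, and 197 of 336 distal positions were called lower. Leaving out single libraries gave 136 to 188 lower positions. The 136 came without vehicle replicate 3, where 7.68% of all positions were called lower. The 188 came without BMH-21 replicate 3, where 11% were. The share of all positions was highest, at 12%, without vehicle replicate 2, where 185 positions were lower here. Without any test, every BMH-21 library was below every vehicle library at 251 of 350 positions at 2 min (37.7% of all positions of the gene) and at 237 at 16 min (20.6%). The reverse order occurred at 0 of the 350 positions at both times, and its share over the whole gene was not counted.

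Pauses were called where the median of a group was the highest within 5 nt, at least 3 times the median of the positions within 25 nt, and at least 5 RPM. There were 23 after BMH-21 and 25 after vehicle at 2 min, and 22 after BMH-21 and 23 after vehicle at 16 min. After BMH-21 at 16 min, 1 read was 0.190 to 0.949 RPM, so low pauses there rest on few reads. Of those pauses, position 350 was called in 0 single libraries, and positions 120 and 272 in 1 each. Most sites were common to both treatments. At 2 min 19 were shared, 82.6% of those after BMH-21 and 76.0% of those after vehicle, and at 16 min 16 were shared, 72.7% of those after BMH-21 and 69.6% of those after vehicle. Of 34 sites called in any group, 14 were called in all 4, at positions 19, 57, 64, 102, 144, 163, 175, 195, 206, 232, 251, 260, 302 and 336, and 10 of them were called in each of the 12 libraries. Neighbouring sites among the 14 were 7 to 42 nt apart.

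**Figure D3:**
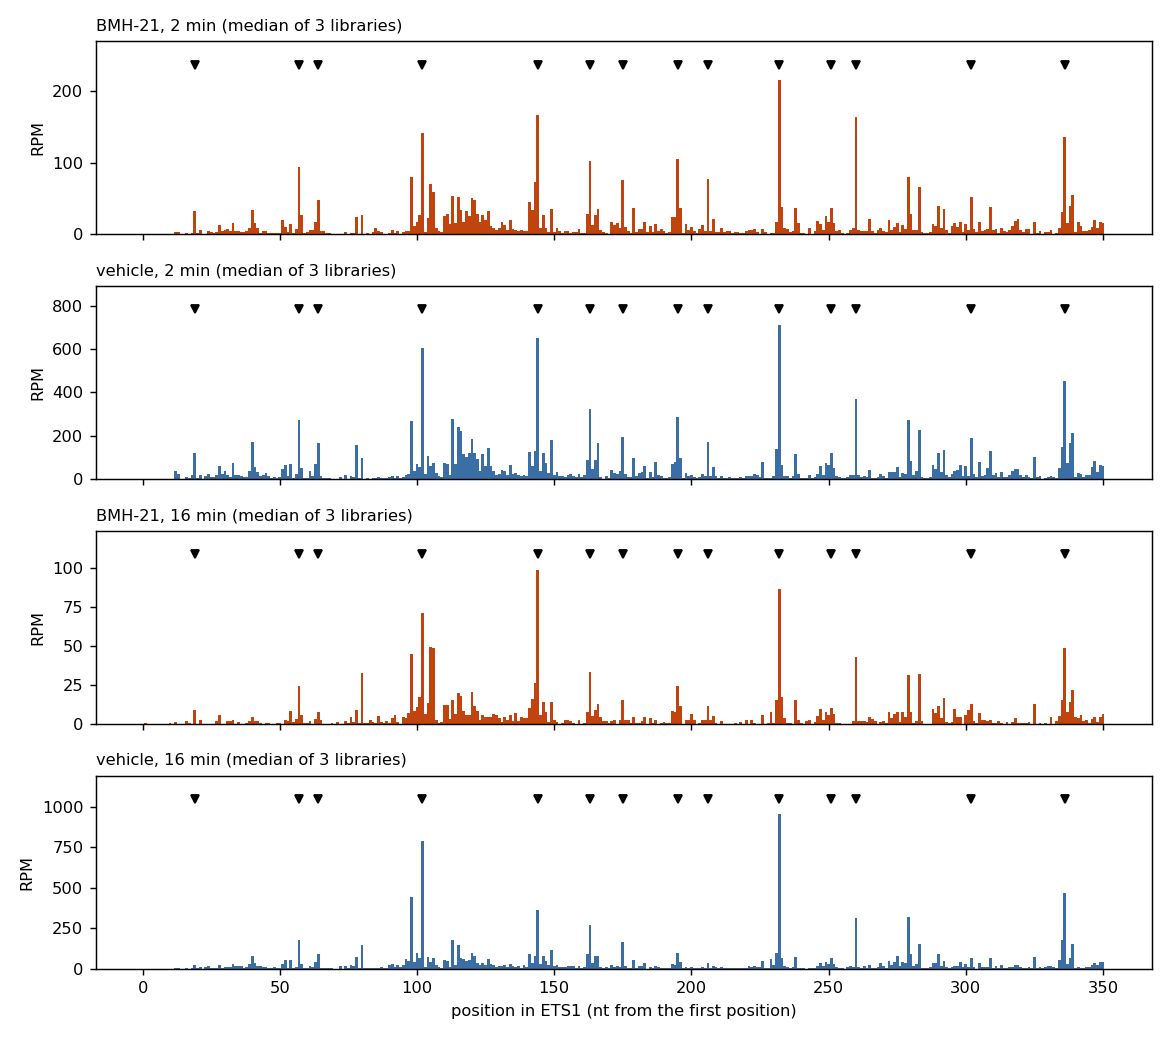
Median RPM of 3 libraries at each of the 350 positions, in separate panels for BMH-21 and vehicle at 2 min and at 16 min; the linear axes differ in range between panels, and triangles mark the 14 pauses called in all 4 groups. The same peaks recur in each panel, with the highest at position 232 in 3 panels and at position 144 after 16 min of BMH-21.

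Many of the pauses ended in A, often after a G. Among the 14 common pauses the last incorporated base was A in 7, C in 3, G in 2 and U in 2, and A made up 26.6% of the 350 positions. The base just before was G in 8 of the 14, or 57.1%, where G preceded 26.9% of positions. Within the groups, A was the last base in 15 of 23 pauses after BMH-21 and 14 of 25 after vehicle at 2 min, and in 13 of 22 after BMH-21 and 13 of 23 after vehicle at 16 min. G preceded the pause in 12 of 23 after BMH-21 and 12 of 25 after vehicle at 2 min, and in 13 of 22 after BMH-21 and 11 of 23 after vehicle at 16 min. These shares were similar with and without the drug and were not tested. Pauses at 102 and 195, for example, lie on the A of GGA.

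The bases around the read ends were also counted. Weighted by signal, the mean number of G in the 10 nt after the last incorporated base was 2.73 in each BMH-21 library and 2.702 to 2.721 in the vehicle libraries at 2 min. It was 2.81 to 2.94 in the BMH-21 libraries and 2.94 to 2.98 in the vehicle libraries at 16 min. The unweighted mean over the 350 positions was 2.68. For U in the 10 nt before that base the weighted mean was 2.87 to 2.95 after BMH-21 and 2.86 to 2.89 after vehicle at 2 min, and 2.72 to 2.95 after BMH-21 and 2.78 to 2.85 after vehicle at 16 min. These counts were chosen after the data had been seen and were not tested.

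All 14 common pauses had every BMH-21 library below every vehicle library at 2 and 16 min, against 37.7% and 20.6% of all positions. By limma 13 of them were lower at 2 min and 13 at 16 min, against 23.4% and 11.7% of all positions. Position 260 missed the threshold at 2 min (limma adjusted p = 0.0527) and position 19 at 16 min (limma adjusted p = 0.0536). The log2 changes of the 14 ran from -2.18 to -1.19 at 2 min, with a median of -1.66, and from -3.52 to -1.51 at 16 min, with a median of -2.91. At 2 min each of the 13 lost its call without vehicle replicate 2 or 3, where 0.0148% of all positions were called lower. Without vehicle replicate 2 limma's adjusted p of the 13 ran from 0.0573 at position 102 to 0.116 at position 57. At 16 min positions 64, 206 and 302 lost theirs without 1 of several libraries, with limma adjusted p up to 0.0974 at 64 without vehicle replicate 3, 0.152 at 206 without BMH-21 replicate 2 and 0.0804 at 302 without BMH-21 replicate 1.

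Position 232, the U in ACCUGAAC, was the highest position of promoter-proximal ETS1 after vehicle at both times. At 2 min it had 336, 119 and 216 RPM in the BMH-21 libraries and 579, 712 and 737 RPM in the vehicle libraries, a log2 change of -1.71 ± 0.36 (SE; limma adjusted p = 0.0180). Position 232 at 16 min had 106, 86.3 and 70.2 RPM in the BMH-21 libraries and 844, 955 and 1240 RPM in the vehicle libraries, a log2 change of -3.52 ± 0.23 (SE; limma adjusted p = 0.00073). The groups did not overlap at either time, but the 2 min call was lost in 6 of 14 settings, with a limma adjusted p of up to 0.0763 without vehicle replicate 2.

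Position 102, the A in GUGGAGAG, was also among the highest sites. It had 218, 79.1 and 142 RPM in the BMH-21 libraries and 557, 606 and 683 RPM in the vehicle libraries at 2 min, a log2 change of -2.18 ± 0.35 (SE; limma adjusted p = 0.0104). At 16 min it had 71.4, 68.8 and 74.9 RPM in the BMH-21 libraries and 789, 734 and 841 RPM in the vehicle libraries, a log2 change of -3.44 ± 0.16 (SE; limma adjusted p = 0.00060). The replicates at 16 min lay close together in both groups. Position 98, the G that ends ACGG upstream, had 52.0, 45.1 and 33.2 RPM in the BMH-21 libraries and 445, 442 and 598 RPM in the vehicle libraries at 16 min.

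Position 144, the C in AUACAGC, was lower after BMH-21 at both times. At 2 min it had 442, 128 and 166 RPM in the BMH-21 libraries and 606, 685 and 650 RPM in the vehicle libraries, a log2 change of -1.61 ± 0.43 (SE; limma adjusted p = 0.0340). At 16 min it had 98.9, 64.1 and 129 RPM in the BMH-21 libraries and 368, 335 and 364 RPM in the vehicle libraries, a log2 change of -1.91 ± 0.27 (SE; limma adjusted p = 0.0062). It ranked 1 of 350 by the BMH-21 median and 5 by the vehicle median at that time. Its share of the promoter-proximal signal was 5.25%, 4.18% and 5.15% in the BMH-21 libraries and 3.27%, 2.83% and 2.44% in the vehicle libraries at 16 min, so that the groups separated.

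**Figure D4:**
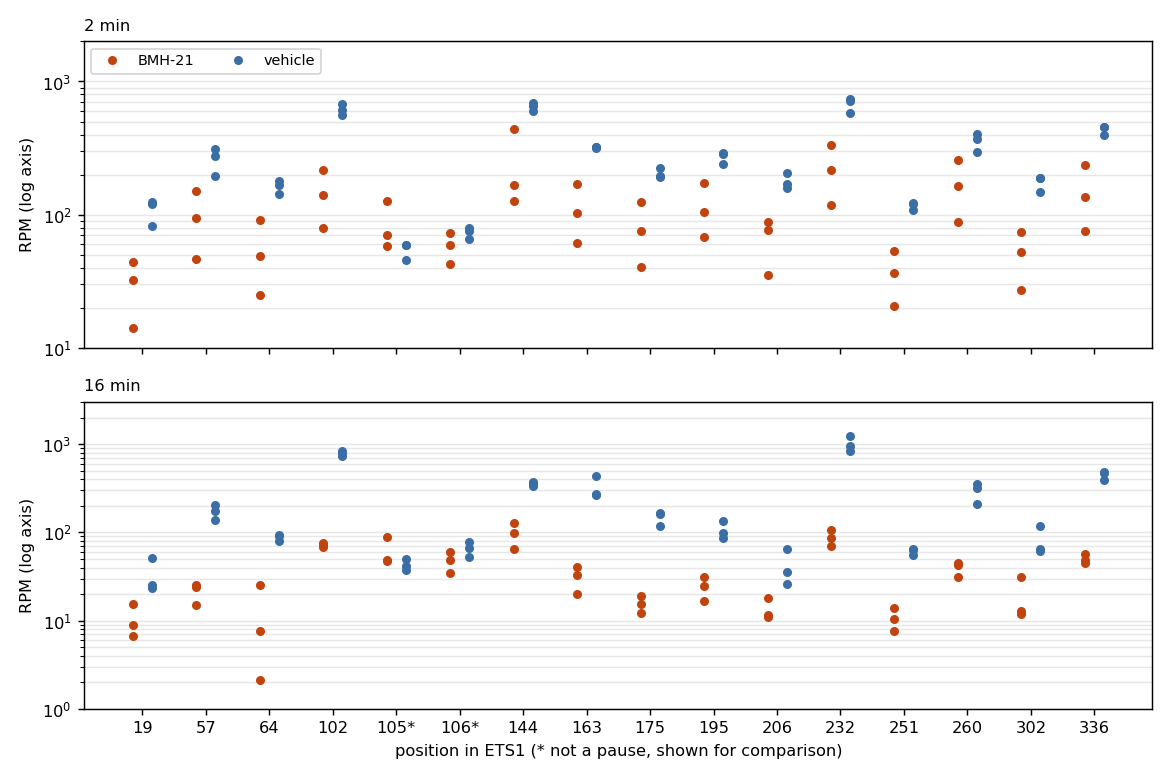
RPM in each library at the 14 pauses called in all 4 groups and at positions 105 and 106, marked with an asterisk, on log axes, at 2 min (top) and 16 min (bottom). At each of the 14 pauses the 3 BMH-21 points lie below the 3 vehicle points, whereas at positions 105 and 106 the groups overlap at both times.

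Positions 105 and 106, 3 and 4 nt after the pause at 102, differed from their surroundings. Position 105, a G, had 128, 58.4 and 70.0 RPM in the BMH-21 libraries and 45.7, 58.8 and 59.8 RPM in the vehicle libraries at 2 min. At 16 min it had 49.1, 48.0 and 88.2 RPM in the BMH-21 libraries and 41.5, 37.6 and 50.0 RPM in the vehicle libraries. The groups overlapped at both times, and the log2 change was 0.56 ± 0.29 at 2 min and 0.46 ± 0.28 at 16 min (SE; limma adjusted p = 0.199 and 0.427). Position 106, an A, had 72.6, 42.4 and 58.9 RPM in the BMH-21 libraries and 66.2, 79.1 and 75.4 RPM in the vehicle libraries at 2 min. At 16 min it had 34.98, 48.6 and 60.7 RPM in the BMH-21 libraries and 53.3, 67.0 and 76.9 RPM in the vehicle libraries, again with overlap. Signal at these bases did not change detectably on the scale of the whole gene while the pause next to them lost most of its own.

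Within a library the contrast was plain. The signal at 105 relative to that at 102 was 0.585, 0.739 and 0.494 in the BMH-21 libraries and 0.0821, 0.0970 and 0.0874 in the vehicle libraries at 2 min. The same ratio at 16 min was 0.688, 0.697 and 1.18 in the BMH-21 libraries and 0.0526, 0.0513 and 0.0594 in the vehicle libraries. For position 106 the ratio to 102 was 0.333, 0.537 and 0.416 in the BMH-21 libraries and 0.119, 0.130 and 0.110 in the vehicle libraries at 2 min. Every BMH-21 library was above every vehicle library in each of these ratios, which do not depend on the scaling. They were chosen after the values had been seen and carry no test. By rank, position 105 was 14 of 350 after BMH-21 and 81 after vehicle at 2 min, and 4 after BMH-21 and 67 after vehicle at 16 min. The sequence from 98 to 106 is GUGGAGAGA, in which G and A alternate from position 101 onwards.

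To compare the shape of the profile alone, each library was scaled to its own promoter-proximal sum. At 2 min limma then called 10 positions lower and 11 higher among 338, and edgeR 14 lower and 30 higher. Over the whole gene 0.771% of positions were called lower and 61.5% higher under that scaling by limma, and 1.45% and 75.2% by edgeR. Among positions with a mean of at least 10 RPM limma called 5 lower and 4 higher, against 0.412% and 71.1% of all such positions. With so many calls elsewhere an adjusted p lies close to the unadjusted one, so that single calls in this comparison are weak. At 16 min limma called 46 lower and 26 higher among 335, and edgeR 21 lower and 17 higher, where 2.71% of all positions were called lower and 81.0% higher by limma and 1.22% and 80.6% by edgeR. With at least 10 RPM it called 28 lower and 17 higher, against 1.83% and 92.5%. At 16 min 19 lower and 13 higher positions were called by both tools. For limma 1 RPM was added after scaling, and at 16 min limma set positions lower in shape than edgeR did. The reason was not tested. The median log2 change in shape of the 335 positions was -0.22 by limma and -0.04 by edgeR.

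Positions 105, 106 and 142 were called higher, and position 13 lower, by both tools at both times. Position 105 had a log2 change in shape of 2.16 ± 0.43 at 2 min and 3.12 ± 0.27 at 16 min (SE; limma adjusted p = 0.0079 and 8.8e-05). Position 106 had 1.24 ± 0.44 at 2 min and 2.20 ± 0.30 at 16 min (SE; limma adjusted p = 0.0279 and 0.00015). Position 142, 2 nt before the pause at 144, had 1.121 ± 0.42 at 2 min and 1.85 ± 0.35 at 16 min (SE; limma adjusted p = 0.0350 and 0.00087). Its share of the promoter-proximal signal was 0.880%, 0.824% and 0.675% in the BMH-21 libraries and 0.344%, 0.357% and 0.371% in the vehicle libraries at 2 min. At 16 min the share was 0.731%, 1.03% and 1.55% in the BMH-21 libraries and 0.333%, 0.252% and 0.268% in the vehicle libraries, so that the groups separated at both times.

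Further positions were called in shape. Of the lower ones at 2 min, positions 17 and 23 rest on 3 and 17 reads after BMH-21, and position 17 was too low to be tested at 16 min. At 16 min, among others, positions 136, 138, 143 and 144 were called higher by both tools, whereas 96, 102 and 113 were called lower by both. Position 206 also took a larger share at 16 min, 0.581%, 0.755% and 0.719% in the BMH-21 libraries and 0.230%, 0.302% and 0.438% in the vehicle libraries. Position 163 took a smaller one, 1.76%, 1.30% and 1.63% in the BMH-21 libraries and 2.34%, 2.29% and 2.95% in the vehicle libraries. Position 13 rests on 30 reads after BMH-21 at 2 min and on 0 reads in each BMH-21 library at 16 min.

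**Figure D5:**
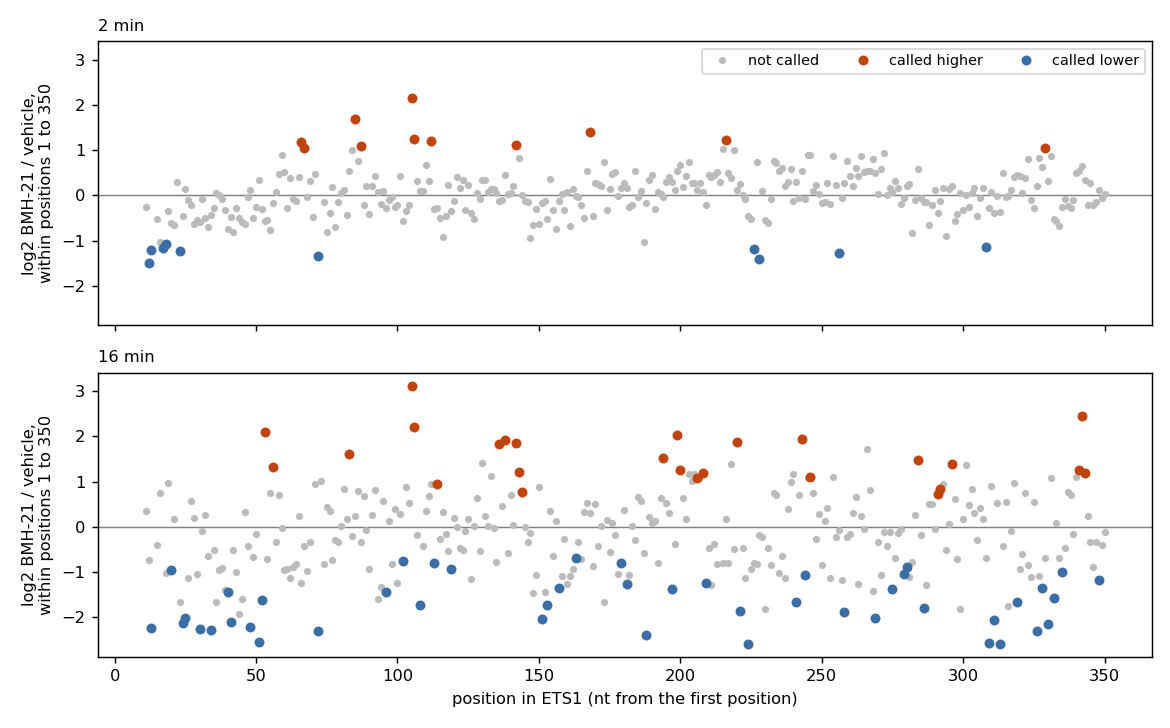
Log2 ratio of BMH-21 to vehicle at each tested position after scaling each library to its sum over positions 1 to 350, at 2 min (top) and 16 min (bottom); colours mark positions that limma called higher or lower. Position 105 is the highest point in both panels, at 2.16 and 3.12, and the spread of the points is wider at 16 min, where the BMH-21 libraries held 2643 to 8079 reads.

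The weight of the tallest positions was also compared. At 16 min the 10 highest positions of each library held 29.6%, 33.9% and 25.9% of the promoter-proximal signal in the BMH-21 libraries. They held 36.3%, 34.3% and 34.4% in the vehicle libraries, a difference of -5.19 percentage points without overlap (exact permutation p = 0.1). It was -3.24 without BMH-21 replicate 3, and -2.78 with overlapping groups (exact permutation p = 0.3) without position 232. At 2 min they held 24.7%, 24.9% and 25.5% in the BMH-21 libraries and 25.9%, 25.1% and 24.98% in the vehicle libraries, with overlap (exact permutation p = 0.5). Over both times the difference was -2.75 (exact permutation p = 0.04, adjusted p = 0.107 over 8 measures). The 14 common pauses held 27.3%, 29.0% and 22.1% in the BMH-21 libraries and 32.0%, 31.1% and 30.7% in the vehicle libraries at 16 min. The mean position of the signal was 188.1 ± 1.0 after BMH-21 and 185.0 ± 2.0 after vehicle at 2 min, and 183.2 ± 0.9 after BMH-21 and 185.9 ± 3.0 after vehicle at 16 min (SD, n = 3 each). These shifts of about 3 nt were opposite in sign, and over both times the difference was 0.21 nt (exact permutation p = 0.88).

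The shares of C and A at the read ends separated at 16 min, though neither passed a test. C was the last base of 14.9%, 14.5% and 18.2% of promoter-proximal signal in the BMH-21 libraries and of 11.9% to 13.0% in the vehicle libraries, a difference of 3.55 percentage points without overlap. A was the last base of 34.8%, 35.2% and 33.3% in the BMH-21 libraries and of 36.9%, 36.5% and 36.2% in the vehicle libraries, a difference of -2.13 without overlap. The exact permutation p was 0.1 for each (adjusted p = 0.2 over 8 measures). At 2 min only U separated. It was the last base of 20.3%, 19.9% and 19.0% in the BMH-21 libraries and of 20.6%, 20.4% and 20.5% in the vehicle libraries. That difference was -0.75 (exact permutation p = 0.1, adjusted p = 0.2 over 8 measures). Over both times the difference for C was 2.04 (exact permutation p = 0.025, adjusted p = 0.1 over 8 measures) and for A -1.26 (exact permutation p = 0.135). For G and U the differences over both times were -0.35 and -0.43, with exact permutation p of 0.655 and 0.215. Single positions weigh on such shares. Without position 232, the highest U, the U difference was 1.11 over both times and 2.81 at 16 min, so that its direction turned. The C at position 144 alone held 4.18% to 5.25% of the signal after BMH-21 and 2.44% to 3.27% after vehicle at 16 min. Position 137, also a C, was high in 1 library. It had 1.77, 0.190 and 56.0 RPM in the BMH-21 libraries and 15.5, 17.9 and 12.3 RPM in the vehicle libraries at 16 min. Without BMH-21 replicate 3 the C difference at 16 min was 2.39.

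The log2 change in the share of promoter-proximal ETS1 differed between 16 min and 2 min by -1.07, with an exact permutation p of 0.22. Without replicate 1 of every group that difference was -0.63. The 3 BMH-21 libraries at 2 min, from 0.310% to 0.922%, were also more spread than those at 16 min. Replicate profiles resembled each other less at 16 min. Across the 350 positions the median Spearman correlation between BMH-21 libraries was 0.906 at 2 min and 0.639 at 16 min, between vehicle libraries 0.969 and 0.814, and between a BMH-21 and a vehicle library 0.908 and 0.674. Positions within a library share its depth, so these values are descriptions. At both times a BMH-21 library correlated with a vehicle library about as much as with another BMH-21 library. The BMH-21 libraries held fewer reads here, 2643 to 8079 at 16 min against 19409 to 117923 after vehicle. How far depth lowers these correlations was not tested, so they do not show that the profiles are alike.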

How the data were processed

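The tables held 1 treatment time each, with 6 libraries a table. Per the labels, processing used bcl2fastq 2.20.00, cutadapt 1.12, STAR 2.7.1a, SAMtools 1.6 and bedtools 2.26.0 on R64. The authors deposited RPM values for every 35S position, scaled to the read ends of each library on that gene. Their means, medians, intervals, ratios and p-values were not used.

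Whole reads were recovered for 99.9% to 100% of values (tolerance 0.01) and tested by edgeR 4.0.16 (quasi-likelihood) as an alternative. The main fit, within each time, was limma 3.58.1 (R 4.3.3) on log2(RPM + 1) of all 35S positions averaging at least 1 RPM. Adjustment followed Benjamini-Hochberg, and calls were made below 0.05. This scale understates changes of low positions. Single values per library were compared by exact permutation. The fits were tested on simulated data.

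The named positions were the 5 highest per group and time by median, the 3 most lowered and 3 most raised among calls, and the pauses of all 4 groups, 23 in all. Members, measures and lists were chosen with earlier results of these data known. The shape comparison by edgeR or with at least 10 RPM was added after seeing the data.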

Additional observations from a re-analysis of the deposited data

How the results depend on the processing

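The share of promoter-proximal ETS1 kept its direction in every alternative run. With 1 library left out, the lower positions at 2 min numbered 1 to 307, against 0.0148% to 28.8% of all positions. The higher ones numbered 0 to 1, the 1 without BMH-21 replicate 2, where 4.49% of all positions were called higher. Of the windows, 0 to 14 were lower. Median-ratio scaling gave 72 lower positions and 8 lower windows at 2 min. Scaling to promoter-proximal ETS1 gave 10 lower and 11 higher positions and 0 lower windows at 2 min. At 16 min it gave 46 lower positions and 26 higher ones, and 1 window fell in each direction. Scaling to distal ETS1 gave 10 lower and 23 higher at 2 min, against 0.771% and 74.4% of all positions. At 16 min that scaling gave 44 lower and 27 higher, against 2.71% and 80.9%. A pseudocount of 0.1 gave 126 lower positions at 16 min, against 7.10% of all positions. For shape alone, edgeR called 30 higher at 2 min, and 21 lower and 17 higher at 16 min. At least 10 RPM gave 5 lower and 4 higher at 2 min, and 28 lower and 17 higher at 16 min.

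With the replicate block, 66 positions (against 9.40% of all positions) and 0 windows were lower at 2 min. The 10 highest positions over both times then gave -2.75 (exact p = 0.125). At 16 min 198 positions (against 11.6% of all positions) and 14 windows were lower. Same-numbered libraries correlated at -0.36, -0.10 and -0.13 at 2 min and 0.09, 0.08 and 0.30 at 16 min. The labels name no shared day or batch, and the numbers were not taken as pairs.

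For the ratio to distal ETS1, the log2 difference of BMH-21 from vehicle at 16 min was 0.047 without the highest vehicle position. The split at 300 gave 0.020, medians 0.46 (0.38 over both times), and leaving out 1 library -0.062 to 0.052. Without the highest vehicle position the U share differed by 2.81 at 16 min and 1.11 over both times, and the 10 highest positions by -1.49; the 18 highest gave -2.06. Leaving out 1 library gave -3.78 to -1.77 for the 10 highest, -0.36 to 1.06 nt for the mean position, -0.70 to 0.13 for G, -1.77 to -0.67 for A and 1.45 to 2.38 for C over both times, -1.42 to 0.80 for A at 2 min, and -0.47 to 0.29 for U at 16 min. The 10 highest positions lost their unadjusted call, at -2.67 and -2.72 without BMH-21 replicates 1 and 2 of 2 min, -2.60 without vehicle replicate 1 of 2 min, and -2.42, -2.93 and -2.90 without vehicle replicates 1, 2 and 3 of 16 min. C lost it without vehicle replicates 2 and 3 of 16 min, at 1.94 and 1.96. The mean position turned negative at -0.025 without BMH-21 replicate 2 of 16 min, and at -0.31 and -0.12 without vehicle replicates 1 and 2 of 16 min.

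Scaling to promoter-proximal or distal ETS1 turned the log2 change of named positions positive. At 2 min these were 51 (0.34 and 0.45), 57 (0.069 and 0.19), 106 (1.24 and 1.36), 144 (0.013 and 0.14), 175 (0.14 and 0.27), 195 (0.29 and 0.41), 206 (0.11 and 0.23) and 260 (0.43 and 0.56), and by distal ETS1 alone 98 (0.076), 163 (0.11), 232 (0.037) and 336 (0.050). At 16 min they were 19 (0.98 and 0.98), 106 (2.20 and 2.20), 144 (0.77 and 0.77), 195 (0.53 and 0.53), 206 (1.09 and 1.08), 251 (0.14 and 0.13) and 302 (0.49 and 0.49). This follows from the scaling, which raised the log2 changes, by less at low positions because 1 RPM was added after it. At 16 min position 105 went from 0.46 to 3.12 with scaling to promoter-proximal ETS1, and position 13 from -2.86 to -2.24. Among alternatives for named positions 623 kept direction and call, 147 lost the call and 22 gained it.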
